A study of Mus musculus with 8 samples.

Results

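The macrophage and neutrophil genes are 41 genes that mark phagocytes, the cells that engulf microbes, debris and dying cells. Members were found by gene symbol in a table of 23361 genes from RNA sequencing of mouse stomach. Of the 41, 39 were found under their current symbol and Spi1 by its Entrez number under an older symbol, so that 40 were examined, and no row was matched to Ly6g. The table covers 5 cancers of the gastric squamous-columnar junction (SCJ), where the squamous forestomach meets the glandular stomach, and the SCJ of 3 control stomachs. The cancers carried Trp53-/-Rb1-/-, made in mice with an Lgr5-eGFP-Ires-CreERT2 knock-in, floxed Trp53 and Rb1 and an Ai9 tdTomato reporter. Tamoxifen was injected to activate Cre in cells that express Lgr5, and tumors were dissected along their tdTomato borders many months later. The controls were wild type and age-paired. Genotype, tamoxifen and tumor growth therefore went together and cannot be told apart. The labels do not say whether each cancer came from a different mouse, and p-values measure only the spread between these 8 samples.

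Macrophages and neutrophils arise from myeloid progenitors, whose fate depends on the transcription factor PU.1 (Spi1). Colony-stimulating factors keep them alive: CSF1 acts on macrophages through CSF1R, and CSF3 acts on neutrophils through CSF3R. Mature cells sense their targets with scavenger, lectin and Fc receptors, many of which signal through small adaptors that carry an activation motif (ITAM), and kill with lysosomal enzymes, granule proteases and an NADPH oxidase. Macrophages reside throughout the layers of the gut wall, while neutrophils enter from blood during inflammation.

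Values are FPKM, fragments scaled by transcript length and by the fragments of the library, which the authors rounded to whole numbers, so that levels of different genes can be compared per length but low levels carry few steps. Depth per library is unknown. Differences are given as log2 fold changes, cancer minus control, on the log2(FPKM + 1) scale, and a gene was past the threshold when its adjusted p from limma was under 0.05. In the cancers Rb1 had 4 to 6 FPKM against 9 to 10 in the controls, and Trp53 had 12 to 30 against 16 to 19, for whole genes and whole tissue. The 3 controls held 887141 to 992550 FPKM in sum and the 5 cancers 403569 to 573858, and setting all libraries to an equal sum (TPM) moved the median change over all tested genes from -0.04 to 0.81 (log2). Of genes past the threshold 47.0% were higher with FPKM and 93.1% with TPM. Defining genes of both epithelia were present in the controls, with Gkn1 of the glandular stomach at 33163 to 41821 FPKM and Krt13 of the squamous epithelium at 961 to 1571. The chief cell gene Pgc was listed at 28832 in control 1 and at 0 in controls 2 and 3, so that a listed 0 was not read as absence.

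RefSeq promoters (GRCm38.p6, the same assembly as mm10) were available for 30 of the 40 members. The letters GAGGAA, the core that PU.1 binds, or TTCCTC on the other strand stood within the 250 bases before a gene start in 19 of these 30, against 25.9% of 27025 genes. The motif was present in 7 of the 10 members with a promoter that were past the threshold and in 12 of the 20 others. The 6 upstream stretches below belong to members described in the next paragraphs. C1qb, Trem2, Ctss, Itgam and Fcgr1 were higher in the cancers, and S100a9 was not. The 6 are a selection and do not represent the counts, in which 12 of the 20 others held the motif too. Each is written 5′ to 3′ toward the gene, and capitals mark the motif on either strand.
C1qb, chr4:136886201-136886450, strand minus: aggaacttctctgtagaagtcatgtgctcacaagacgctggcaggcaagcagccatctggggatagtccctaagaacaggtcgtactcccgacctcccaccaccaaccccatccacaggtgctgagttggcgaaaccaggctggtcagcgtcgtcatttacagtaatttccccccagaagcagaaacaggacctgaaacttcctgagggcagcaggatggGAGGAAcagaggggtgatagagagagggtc
Trem2, chr17:48346151-48346400, strand plus: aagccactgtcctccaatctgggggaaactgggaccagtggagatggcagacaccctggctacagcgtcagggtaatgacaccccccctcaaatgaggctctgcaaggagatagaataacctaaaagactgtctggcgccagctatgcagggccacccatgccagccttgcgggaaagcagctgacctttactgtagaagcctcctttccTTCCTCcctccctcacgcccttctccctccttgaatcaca
Ctss, chr3:95526536-95526785, strand plus: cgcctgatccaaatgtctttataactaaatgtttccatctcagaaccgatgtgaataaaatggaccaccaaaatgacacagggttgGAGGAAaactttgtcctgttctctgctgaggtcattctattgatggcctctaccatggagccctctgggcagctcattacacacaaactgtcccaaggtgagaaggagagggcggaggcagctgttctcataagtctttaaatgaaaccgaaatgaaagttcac
Itgam, chr7:128062390-128062639, strand plus: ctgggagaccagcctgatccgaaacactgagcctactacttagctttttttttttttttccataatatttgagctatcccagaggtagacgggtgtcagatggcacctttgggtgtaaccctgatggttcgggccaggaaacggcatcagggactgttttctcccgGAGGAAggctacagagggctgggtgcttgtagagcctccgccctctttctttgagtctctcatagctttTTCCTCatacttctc
Fcgr1, chr3:96293970-96294219, strand minus: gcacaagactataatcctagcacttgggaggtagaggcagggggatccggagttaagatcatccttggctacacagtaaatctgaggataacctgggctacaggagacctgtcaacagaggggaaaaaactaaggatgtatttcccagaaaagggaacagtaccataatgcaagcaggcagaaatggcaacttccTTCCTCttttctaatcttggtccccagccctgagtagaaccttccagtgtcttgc
S100a9, chr3:90695722-90695971, strand minus: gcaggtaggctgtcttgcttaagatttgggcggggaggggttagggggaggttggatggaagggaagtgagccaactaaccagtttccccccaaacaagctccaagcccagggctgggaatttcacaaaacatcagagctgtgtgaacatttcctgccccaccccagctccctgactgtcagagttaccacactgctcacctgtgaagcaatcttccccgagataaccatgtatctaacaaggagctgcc
C1qb held the motif 30 bases before its start, Trem2 40, Ctss 164 and Fcgr1 55 bases before. Itgam had a match at 84 and another at 15 bases, and S100a9 had none in this window. A match is a run of letters and was not tested as a site.

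Of the 40 members, 34 reached 1 FPKM in at least 3 libraries and were tested, and 16 of them were higher in the cancers at the threshold, where 16.2% of all 14357 genes tested were. No member was lower by limma, against 18.3% of all genes. At an unadjusted p under 0.05, 26 members were higher, where 22.6% of all genes were, and 0 lower, where 25.3% were. The exact permutation test gave p under 0.05 for 15 members, all higher, where 14.8% of all genes were higher by that test. The median log2 fold change of the tested members was 1.26, that of all genes -0.04. Because 7 members with every control listed at 0 passed the filter through the cancers alone, the members above 0 in both groups were also counted: 12 of 27 were higher, against 12.9% of all genes of that kind, with a median of 1.27. In bulk tissue more phagocytes and more RNA per phagocyte cannot be told apart. With TPM 26 of 34 members were past the threshold, all higher, where 50.0% of all genes were higher and 3.68% lower. When each cancer value was lowered and each control value raised by 0.5 FPKM, the largest error that rounding can hide, 9 of 34 were still past it, against 8.15%.

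**Figure D1:**
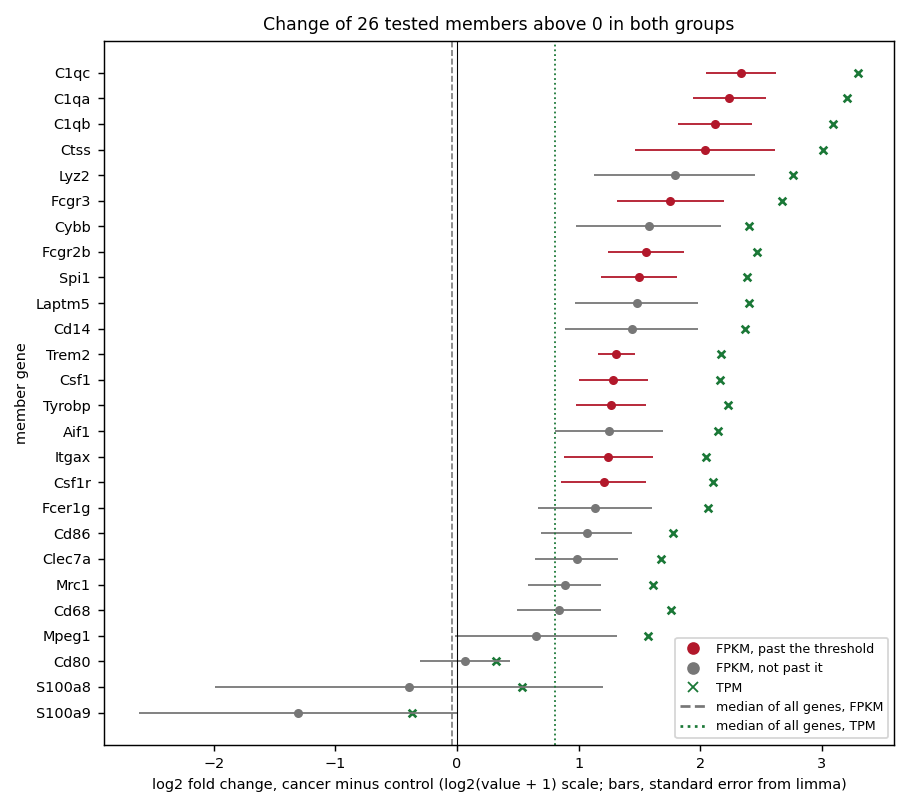
Log2 fold change, cancer minus control on the log2(value + 1) scale, of 26 tested members above 0 in both groups. Circles are FPKM with the standard error from limma (red, past the threshold), crosses are TPM, and the vertical lines give the median of all genes under each scaling; the C1q chains and Ctss lie farthest to the right, at 2.04 to 2.33.

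The 3 chains of complement C1q rose in the cancers. Their changes were the largest of the members above 0 in both groups on the log2(FPKM + 1) scale, an order that other settings changed (Ctss exceeded them without control 1). C1q, which tissue macrophages make, starts the classical complement cascade and tags dying cells for uptake. C1qa (chromosome 4, 136895917 to 136898803, mm10) had 62, 56, 117, 47 and 51 FPKM in cancers 1 to 5 and 13, 15 and 10 in controls 1 to 3. The lowest cancer lay above the highest control, and the log2 fold change was 2.24 (SE 0.30, limma adjusted p 0.00267). C1qb (136880129 to 136886187) had 43, 44, 87, 33 and 39 FPKM in the cancers against 10, 12 and 8 in control SCJ, a log2 fold change of 2.12 (SE 0.31, limma adjusted p 0.00316). C1qc (136889804 to 136893065) had 38, 37, 75, 31 and 34 FPKM and 8, 8 and 6, a log2 fold change of 2.33 (SE 0.29, limma adjusted p 0.0019). Mean FPKM was 5.26, 4.92 and 5.86 times that of the controls for C1qa, C1qb and C1qc. For each chain the two-sided exact permutation test over samples gave p = 0.018, the smallest that 5 against 3 samples allow.

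The chains are secreted as a complex of equal parts, and the ratios of their RNA levels were compared in each library. C1qa was 1.27 to 1.44 times C1qb in the cancers and 1.25 to 1.3 times in the controls. C1qc was 0.841 to 0.939 times C1qb in the cancers and 0.667 to 0.8 times in the controls, so that all controls were below all cancers for this ratio as deposited. Rounding to whole FPKM is large enough to close the gap between the highest control and the lowest cancer. Cancer 3 was the highest for all 3 chains.

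**Figure D2:**
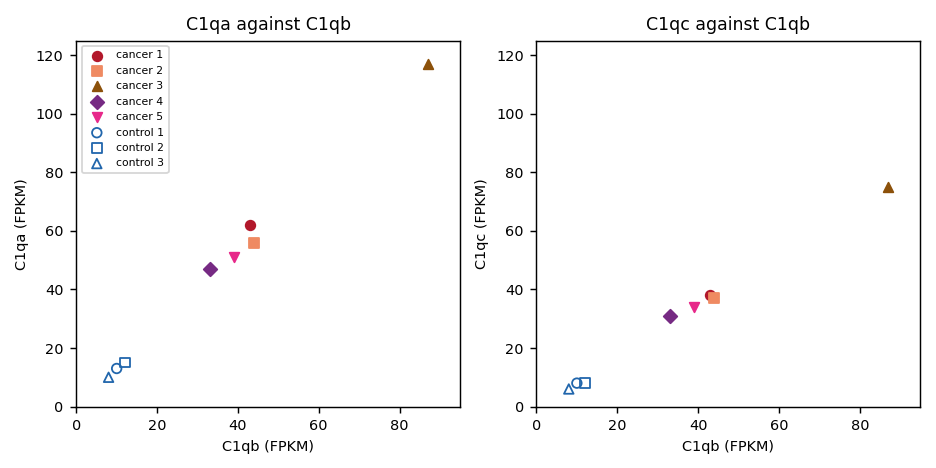
FPKM of C1qa (left) and C1qc (right) against C1qb in each library, both axes linear from 0. Filled symbols are the 5 cancers and open symbols the 3 controls; the points lie close to a line in both panels, with the controls at 8 to 12 FPKM of C1qb and cancer 3 at 87.

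Among colony-stimulating factors and their receptors, both members above 0 in both groups were higher, where 12.9% of all such genes were. Csf1, the ligand that sustains macrophages, had 4, 3, 5, 4 and 8 FPKM in the cancers against 1, 1 and 2 in control SCJ (log2 change 1.28 ± 0.28 SE, limma adjusted p 0.0131). Its receptor Csf1r had 12, 5, 10, 4 and 5 FPKM in the cancers against 2, 3 and 2 in control SCJ (log2 change 1.21 ± 0.35 SE, limma adjusted p 0.0322). Every cancer was above every control for ligand and receptor alike. Both calls were lost with rounding set against a rise (limma adjusted p 0.0582 for Csf1 and 0.0949 for Csf1r), as was Csf1r with quantile normalization (0.0784). Csf1 was just over the threshold without control 1 or control 2 (limma adjusted p up to 0.0566). Csf1r lost its call when cancer 3 or any 1 control was left out (largest limma adjusted p 0.109), and its exons overlap those of Hmgxb3 on the other strand. Csf2rb, the signaling chain shared by the receptors of CSF2, IL-3 and IL-5, had 6, 2, 2, 1 and 2 FPKM in the cancers and was listed at 0 in the controls (limma adjusted p 0.0117). Csf2rb entered the test through the cancers alone, and its call was lost with rounding set against a rise (limma adjusted p 0.142) and with quantile normalization (0.0611). Reads of Csf2rb may be split with its near copy Csf2rb2, which had 4, 1, 1, 1 and 1 FPKM and was also listed at 0 in the controls. Csf3r, the neutrophil receptor, was at 1, 0, 1, 0 and 1 FPKM in the cancers and listed at 0 in the controls (limma adjusted p 0.156).

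Spi1, which encodes PU.1 (chromosome 2, 91082390 to 91115756), had 9, 4, 8, 4 and 4 FPKM in the cancers against 2, 1 and 1 in the controls. All cancers were above all controls, with a log2 fold change of 1.5 (SE 0.31, limma adjusted p 0.0112). Spi1 and Trem2 were the 2 members past the threshold in each of the 16 alternative fits run for them.

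Of the Fc receptors, their adaptors and Trem2, 5 were above 0 in both groups, and 4 of these were higher, where 12.9% of all such genes were. All 5 had every cancer above every control, where 14.4% of all genes tested did, those at 0 in the controls included. Over all tested members 18 were apart in this way, and none had every cancer below every control, where 19.8% of all genes did. Among the 18, Csf2rb, Msr1, Itgam and Fcgr1 had every control listed at 0 and entered the test through the cancers alone. Trem2 (chromosome 17, 48346401 to 48354147), a lipid-sensing receptor of macrophages, had 4, 4, 5, 3 and 4 FPKM in the cancers and 1 in each control. Its standard error was the smallest among the 16 members past the threshold (log2 change 1.31 ± 0.15 SE, limma adjusted p 0.00156). Rounding hides any spread between controls listed at 1 FPKM each, so that this standard error may be too small. Tyrobp (DAP12, chromosome 7, 30413760 to 30417585), the ITAM adaptor through which TREM2 signals, had 40, 34, 52, 25 and 24 FPKM in the cancers against 18, 11 and 12 in control SCJ (log2 change 1.27 ± 0.29 SE, limma adjusted p 0.0145). Without control 2 or control 3 the adjusted p of Tyrobp exceeded 0.05, reaching 0.0605 from limma.

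Fcer1g, the ITAM adaptor shared by several Fc receptors, had 7, 8, 33, 10 and 18 FPKM in the cancers against 6, 5 and 5 in control SCJ. The groups did not overlap, but cancers 1 and 2 were within 2 FPKM of a control, and the log2 fold change of 1.13 was not past the threshold (SE 0.47, limma adjusted p 0.0929). Fcgr2b, the inhibitory IgG receptor, had 7, 5, 9, 6 and 12 FPKM against 3, 2 and 1 (log2 change 1.55 ± 0.31 SE, limma adjusted p 0.00973). Fcgr3, an activating low-affinity IgG receptor, had 5, 5, 14, 8 and 17 FPKM against 2, 3 and 1 (log2 change 1.76 ± 0.44 SE, limma adjusted p 0.0203). The inhibitory and the activating receptor thus both had every cancer above every control, with the highest value in cancer 5. Without control 1 or control 3 Fcgr3 was not past the threshold (largest limma adjusted p 0.0816), and the related Fcgr4 had 1 to 6 FPKM in the cancers and 0 to 1 in the controls. Fcgr1, the high-affinity IgG receptor, was at 1, 1, 3, 1 and 1 FPKM in the cancers and listed at 0 in the controls (limma adjusted p 0.012). It entered the test through the cancers alone, and the call was lost with rounding set against a rise (limma adjusted p 0.554) and with quantile normalization (0.0804).

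The integrin alpha chains were at low levels. Itgam (CD11b) was at 1, 1, 1, 1 and 2 FPKM in the cancers and listed at 0 in the controls (limma adjusted p 0.00385). Itgax (CD11c), found on dendritic cells and many macrophages, had 3, 2, 6, 2 and 2 FPKM in the cancers against 1, 1 and 0 in control SCJ (limma adjusted p 0.035). Itgam therefore entered the test through the cancers alone, and its exons overlap those of Gm49368 on the same strand. Neither stayed past the threshold when rounding was set against a rise or with quantile normalization, and Itgax also dropped out with a pseudocount of 0.1 (limma adjusted p 0.0556) and without cancer 1 or any 1 of the controls (largest 0.12).

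Lysosomal and cytosolic phagocyte genes had some of the highest levels per length. Of 5 tested, 1 was past the threshold, where 16.2% of all genes were higher, and 4 were with TPM, where 50.0% were. Ctss, cathepsin S, a protease of antigen-presenting cells (chromosome 3, 95526786 to 95556403), had 85, 41, 155, 52 and 49 FPKM in the cancers against 35, 15 and 7 in control SCJ. Every cancer was above every control (log2 change 2.04 ± 0.58 SE, limma adjusted p 0.0304), and the call did not hold without cancer 1 or 3 or control 2 or 3 (largest limma adjusted p 0.112). Lyz2, the lysozyme of macrophages and neutrophils, had 252, 89, 84, 27 and 63 FPKM in the cancers against 37, 23 and 13 in control SCJ. Cancer 4 lay among the controls, and the log2 fold change of 1.79 was not past the threshold (SE 0.66, limma adjusted p 0.0677). The near copy Lyz1 had 26, 9, 11, 14 and 183 FPKM in the cancers against 14, 11 and 5 in control SCJ, so that reads of the 2 lysozymes may be split.

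Laptm5, a lysosomal protein of blood cells, had 32, 7, 11, 5 and 8 FPKM in the cancers and 3 in each control. The groups did not overlap, and the adjusted p was 0.0556 from limma. Aif1 (IBA1), an actin-binding macrophage marker, had 9, 7, 18, 7 and 3 FPKM against 3, 3 and 2 (limma adjusted p 0.0605), with cancer 5 level with the highest controls. Mpeg1, the pore-forming perforin-2, had 17, 7, 22, 6 and 13 FPKM against 21, 7 and 2, and the groups overlapped throughout (log2 change 0.65 ± 0.67 SE, limma adjusted p 0.466).

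Of the scavenger and pattern receptors tested, 1 of 3 and 0 of 3 were higher, and 3 and 2 were with TPM, against the same 16.2% and 50.0% of all genes. Msr1, the class A scavenger receptor, was at 2, 1, 2, 1 and 2 FPKM in the cancers and listed at 0 in the controls (limma adjusted p 0.00325). It entered the test through the cancers alone, and the call was lost with rounding set against a rise (limma adjusted p 0.171). Cd68, the lysosomal macrophage marker, had 13, 8, 12, 4 and 12 FPKM against 5, 4 and 5 (log2 change 0.84 ± 0.35 SE, limma adjusted p 0.0914), with cancer 4 level with the lowest control. Mrc1 (CD206), a mannose receptor of resident macrophages, had 2, 2, 1, 2 and 3 FPKM against 1, 1 and 0 (limma adjusted p 0.0557). Cd163, the hemoglobin scavenger receptor, did not pass 1 FPKM in any library, and Marco was at 4 FPKM in cancer 1, 1 in cancer 5 and listed at 0 elsewhere. Both were too low to be tested. None of the 3 tested pattern receptors described next was past the threshold by limma, with 2 at an unadjusted p under 0.05 and 0 by the exact permutation test.

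Cd14, the lipopolysaccharide co-receptor, varied widely among the cancers. It had 6, 19, 11, 24 and 44 FPKM in cancers 1 to 5 and 6, 6 and 5 in the controls, so that cancer 1 alone was level with the controls (log2 change 1.44 ± 0.55 SE, limma adjusted p 0.0742). The C-type lectins that sense fungi and mycobacteria were near the floor of the table. Clec7a (dectin-1) ran from 1 to 3 FPKM in the cancers and from 0 to 1 in the controls (limma adjusted p 0.056). Clec4d had 1, 1, 0, 0 and 3 FPKM in the cancers, Clec4e had 1 in cancers 1 and 5, and both were listed at 0 in all other libraries. Of the costimulatory ligands for T cells, Cd86 had 3, 1, 3, 1 and 1 FPKM against 0, 1 and 0 (limma adjusted p 0.0584, and 0 of the 2 by the exact permutation test), and Cd80 did not exceed 1 FPKM anywhere (limma adjusted p 0.901).

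Of the neutrophil genes, none of the 3 tested was past the threshold by limma, at an unadjusted p under 0.05 or by the exact permutation test, and Mpo and Elane, the peroxidase and elastase of primary granules, were listed at 0 in all 8 libraries. Retnlg, a neutrophil resistin-like gene, had 1, 1, 0, 1 and 10 FPKM in the cancers and was listed at 0 in the controls (limma adjusted p 0.169). S100a8 (chromosome 3, 90668978 to 90670035) and S100a9 (90692632 to 90695721) encode the paired subunits of calprotectin, a metal-binding protein abundant in neutrophils and also made by stressed squamous epithelium. S100a8 had 6, 6, 112, 549 and 223 FPKM in the cancers against 62, 35 and 199 in control SCJ (log2 change -0.39 ± 1.60 SE, limma adjusted p 0.864). S100a9 had 7, 6, 73, 274 and 154 FPKM in the cancers against 111, 70 and 167 in control SCJ (log2 change -1.30 ± 1.31 SE, limma adjusted p 0.453). For both, cancers 1 and 2 were below every control and cancer 4 above every control. The sign for S100a8 turned with TPM (0.54), while that for S100a9 did not (-0.37).

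Squamous keratins varied across the same libraries. Krt14 had 0, 3, 91, 403 and 75 FPKM in cancers 1 to 5 and 100, 119 and 143 in the controls, and Krt5 had 0, 1, 85, 574 and 57 and 128, 170 and 203. Krt13 had 0, 10, 97, 494 and 251 FPKM in the cancers and 961 to 1571 in the controls, and Krt4 had 0, 2, 26, 96 and 89 and 337 to 725. Cancers 1 and 2 had the least of S100a8, S100a9 and the 4 keratins, and cancer 4 had the most among the cancers. Cancer 4 was above every control for S100a8, S100a9, Krt5 and Krt14, and below every control for Krt13 and Krt4. The part of squamous epithelium in the S100a8 and S100a9 levels was not tested. The summed FPKM of S100a8 and S100a9 was 13, 12, 185, 823 and 377 in the cancers against 143, 137, 279, 111 and 124 for the C1q chains. Cancer 4 thus had the most S100 RNA and the least C1q RNA of the 5.

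**Figure D3:**
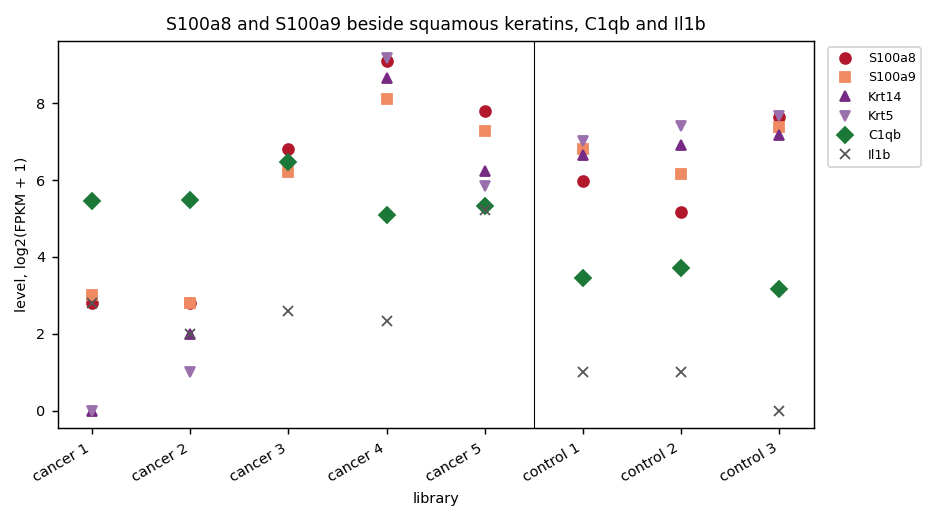
Levels, log2(FPKM + 1), of S100a8 and S100a9, the squamous keratins Krt14 and Krt5, C1qb and Il1b in each library, with cancers left and controls right of the line. S100a8, S100a9 and both keratins are low in cancers 1 and 2 and high in cancer 4, whereas C1qb is above the controls in all 5 cancers.

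Oxygen and nitrogen radicals are made by Cybb and Nos2. Nos2, the nitric oxide synthase of inflammatory macrophages, was at 2 FPKM in cancer 5 and listed at 0 elsewhere. Cybb, the catalytic chain of the phagocyte NADPH oxidase, had 10, 1, 8, 2 and 3 FPKM against 1, 1 and 0 (log2 change 1.58 ± 0.60 SE, limma adjusted p 0.0735), with cancer 2 level with 2 of the controls.

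The cancers differed from each other by member rather than by a common rank. Cancer 3 was the single highest cancer for 12 of the 34 tested members, among them the C1q chains, Ctss, Tyrobp, Fcer1g, Trem2 and Aif1. Cancer 1 was highest for 7 (Csf1r, Csf2rb, Spi1, Cd68, Lyz2, Laptm5 and Cybb) and cancer 5 for 9, including Cd14, Fcgr2b, Fcgr3 and Csf1. Cancer 4 was highest for S100a8 and S100a9 only and lowest for 10 members, cancer 2 was highest for none, and the remaining 4 were ties. Lyz2 was 2.96 and 2.17 times Ctss in cancers 1 and 2, 0.542 and 0.519 times in cancers 3 and 4, 1.29 times in cancer 5 and 1.06 to 1.86 times in the controls. The median standard deviation among the cancers was 0.578 on the log2 scale for the tested members and 0.411 for all genes.

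**Figure D4:**
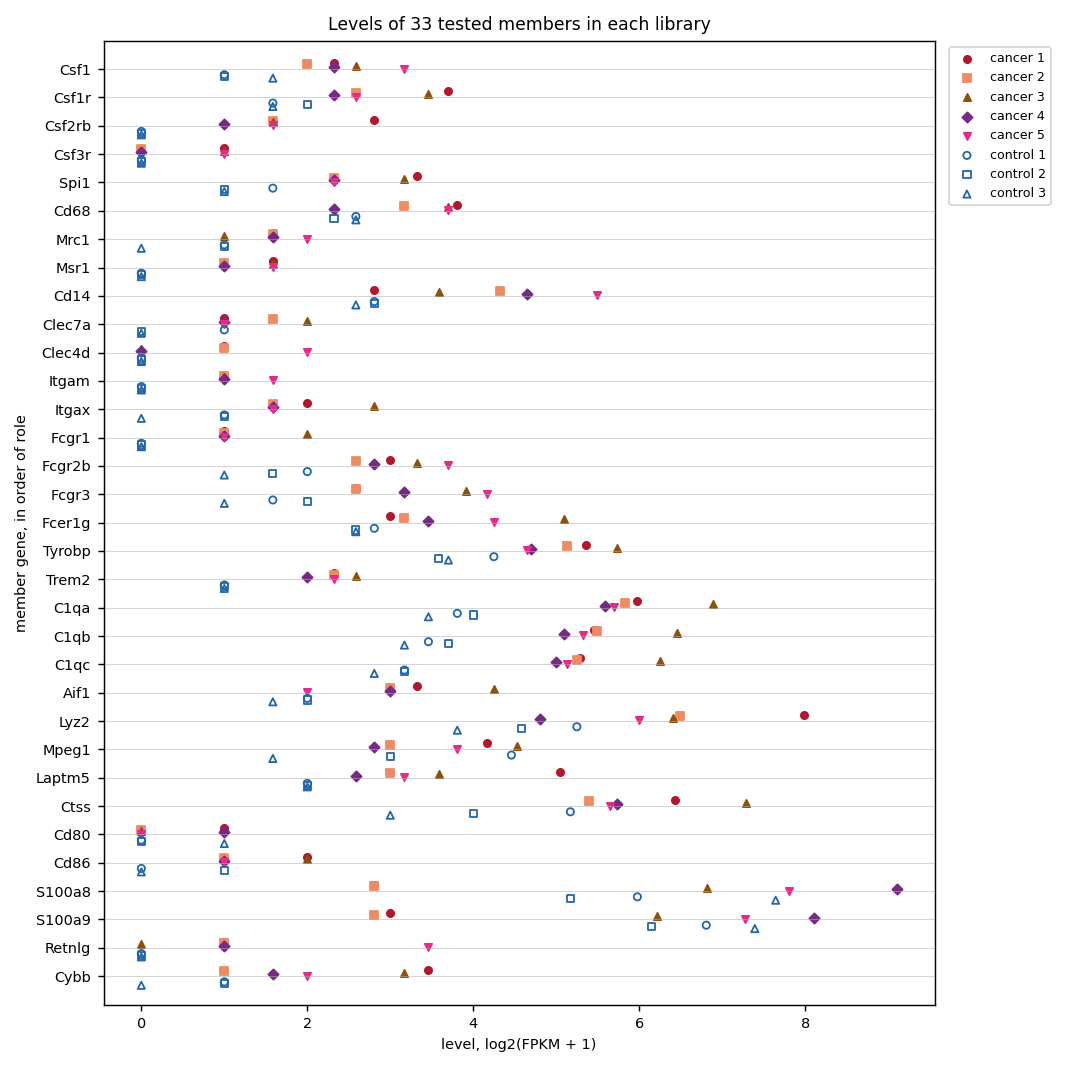
Levels, log2(FPKM + 1), of 33 tested members in each library, ordered by role. Filled symbols are the 5 cancers and open blue symbols the 3 controls; the groups are apart for the C1q chains, Trem2, Spi1 and Tyrobp, and interleaved for Mpeg1, Cd80, S100a8 and S100a9.

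Cancer 1 also held lymphocyte RNA. The B cell genes Cd79a, Cd79b and Ms4a1 had 68, 61 and 26 FPKM there and at most 2 in the other cancers, and the summed level of the B and plasma cell list was 1 to 187 FPKM in the cancers and 0 to 1 in the controls. The leukocyte antigen Ptprc (CD45) had 21, 1, 5, 2 and 2 FPKM in the cancers and 1 in each control. Without cancer 1, 16 members were higher, where 13.6% of all genes were, and 14 of them were also higher with it. Itgax and Ctss dropped out and Cd14 and Laptm5 passed.

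Other genes of the same systems were taken from 20 lists, with 151 of 152 genes found. Of 16 further macrophage genes 13 were tested and 6 were higher, where 16.2% of all genes were (median log2 fold change 0.90). With TPM 10 were higher, where 50.0% were (median 1.65). Sirpa, the receptor for the CD47 signal that restrains phagocytosis, had 30, 14, 25, 15 and 25 FPKM in the cancers against 3, 3 and 4 in control SCJ (log2 change 2.35 ± 0.27 SE, limma adjusted p 0.00155). Slc11a1 (NRAMP1) and Pld4 followed at 1.37 and 1.35 on the log2 scale. Which cells held the RNA of Sirpa and the other list genes was not tested. Adgre1, which encodes F4/80, had 1 to 4 FPKM in the cancers and 1 in each control (limma adjusted p 0.108), and Vsig4 was listed at 0 throughout. Of 12 pan-leukocyte genes 3 were higher and 1 lower, where 16.2% and 18.3% of all genes were. The higher genes were Cd53 and, with every control listed at 0, Lcp2 and Was. The lower gene of this list was Lcp1, whose log2 fold change of -0.99 became -0.05 with TPM. With TPM the pan-leukocyte counts were 9 higher and 0 lower, where 50.0% and 3.68% of all genes were. Without cancer 1 they were 5 and 1, where 13.6% of all genes were higher and 2207 of 14357 lower.

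Over 4 lists of partners of the members, 6 of 26 tested genes were higher and 1 lower, and with TPM 18 were higher, where 16.2% and 50.0% of all genes were. Of 4 tested colony-stimulating factors and receptors outside the members, Csf2ra, Csf2rb2 (controls at 0) and Flt3l were higher, Il34, the second ligand of CSF1R, had 2 to 5 FPKM against 2 to 3 (limma adjusted p 0.231), and Csf2 and Il3 were listed at 0 in all libraries. Among NADPH oxidase partners of Cybb, 1 of 5 was higher, 3 without cancer 1, where 13.6% of all genes were, and 5 with TPM. Of the 11 ITAM signaling genes 1 was higher, and the central kinase Syk had 10, 5, 2, 3 and 3 FPKM against 7, 4 and 7 (limma adjusted p 0.422). Of 6 tested myeloid transcription factors, Irf8 was higher (log2 change 1.24, limma adjusted p 0.0299) and Cebpa lower (-0.79, limma adjusted p 0.0201, and 0.13 with TPM). None of the 3 tested monocyte genes was past the threshold by limma, with 1 (Plac8, lower) at an unadjusted p under 0.05 and by the exact permutation test.

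Of 16 further neutrophil genes 7 were tested and 2 were higher, against 16.2% of all genes. Il1b, an inflammatory cytokine that macrophages also make, had 6, 3, 5, 4 and 36 FPKM in the cancers against 1, 1 and 0 in control SCJ (limma adjusted p 0.0403). Mmp9 was at 1 FPKM in 4 cancers and listed at 0 in cancer 3 and the controls (limma adjusted p 0.0451), a difference of 1 rounding step, and entered the test through the cancers alone (exact permutation p = 0.143). Neither was past the threshold without cancer 1, when the list had 0 of 7 by limma (13.6% of all genes were higher) and 3 at an unadjusted p under 0.05. Camp, Ctsg and Itgb2l were listed at 0 in every library, and Cebpe and Gfi1, transcription factors of granulocyte maturation, were as well. The lactoferrin gene Ltf, which glands also make, had 0, 11, 17, 139 and 62 FPKM in the cancers against 82, 65 and 28 in control SCJ (limma adjusted p 0.413).

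Mast cell genes were mostly lower. Of 6 tested 4 were past the threshold, where 18.3% of all genes were lower, with a median log2 fold change of -1.93. The tryptase gene Tpsb2 had 0, 2, 0, 0 and 0 FPKM in the cancers against 9, 9 and 6 in control SCJ (log2 change -2.83 ± 0.40 SE, limma adjusted p 0.00297). The protease genes Cpa3 and Cma1 were lower too (limma adjusted p 0.00501 and 0.00818), and with TPM both and Tpsb2 were lower as well, where 3.68% of all genes were, while Mcpt4 had a limma adjusted p of 0.051. Of the other immune lists, 1 eosinophil gene was tested and lower (Siglecf, 0 to 1 FPKM in the cancers and 1 in each control, with a limma adjusted p of 0.146 with TPM), and none of 5 T and NK cell, 3 B and plasma cell and 2 dendritic cell genes tested was past the threshold by limma. At an unadjusted p under 0.05 the counts of these 3 lists were 0, 0 and 1 (Batf3, higher), and 0 in each by the exact permutation test. The dendritic cell markers Flt3, Zbtb46 and Xcr1 were at 1 FPKM in cancer 1 and listed at 0 elsewhere.

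The remaining lists describe the tissue around the phagocytes. Over all genes 16.2% were higher and 18.3% lower, and 50.0% and 3.68% with TPM. Of 5 endothelial genes 3 were higher, 4 with TPM (Cdh5, Pecam1 and Cldn5, log2 fold changes 1.56, 1.47 and 1.37) and of 5 fibroblast genes none by limma, with 1 (Col1a1, higher) at an unadjusted p under 0.05 and 0 by the exact permutation test, while all 5 were higher with TPM. The glandular stomach list had 1 of 7 lower (Gkn1), the squamous list 1 of 5 lower (Krt4), and the simple epithelial list 1 of 4 higher (Epcam) and 1 lower (Krt8). At an unadjusted p under 0.05 from limma, 5 glandular and 2 squamous genes were lower, where 25.3% of all genes were. By the exact permutation test 2 and 1 were. In the glandular list 6 genes had every cancer below every control, where 19.8% of all genes did, and the median log2 fold change was -5.07. With TPM the calls of Krt4 and Krt8 were lost (limma adjusted p 0.0556 and 0.11). Without cancer 1 the glandular list had 4 of 7 lower, and the squamous, simple epithelial and eosinophil lists had 0 lower by limma, with 1 simple epithelial gene higher. In that fit 2207 of all 14357 genes were lower and 13.6% higher. Summed glandular genes were 520 to 52865 FPKM in the cancers and 106538 to 169500 in the controls. None of 3 red blood cell genes was past the threshold by limma, at an unadjusted p under 0.05 or by the exact permutation test, with summed levels of 18 to 116 FPKM in the cancers and 27 to 42 in the controls, and the 1 hepatocyte gene tested, Alb, had 16, 18, 58, 1 and 266 FPKM in the cancers and 1 in each control (limma adjusted p 0.0699). With TPM Alb (limma adjusted p 0.0252) and 1 red blood cell gene were higher. The part of these tissue differences in the phagocyte levels was not tested.

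**Figure D5:**
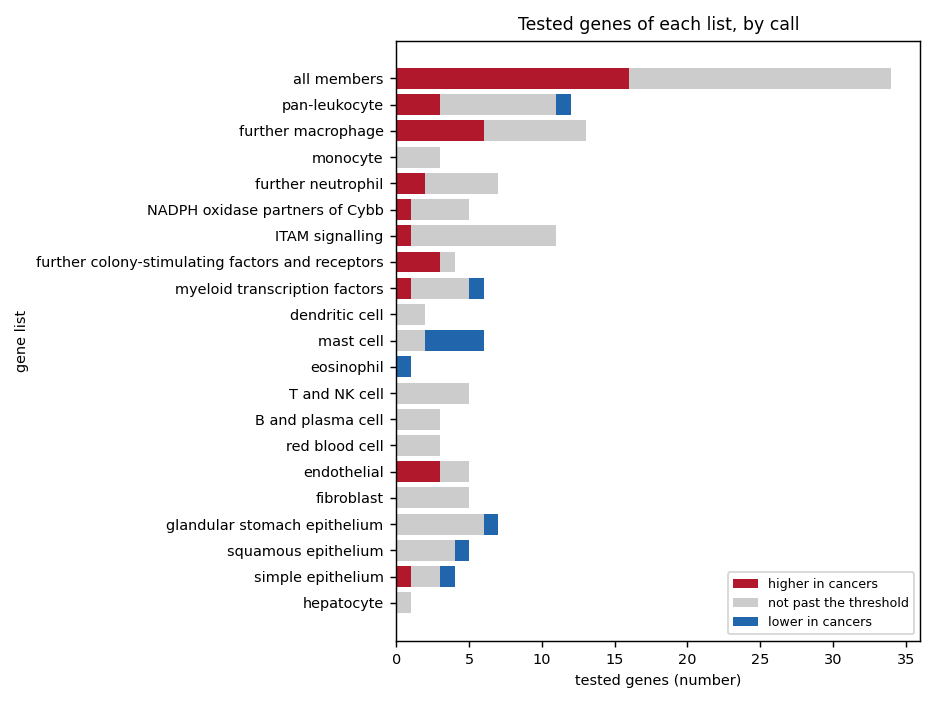
Number of tested genes in each list that were higher in the cancers (red), lower (blue) or not past the threshold (gray), from limma on log2(FPKM + 1). The members have 16 of 34 higher and none lower, the further macrophage genes 6 of 13 higher, and the mast cell genes 4 of 6 lower.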

How the data were processed

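RNA from 5 SCJ cancers and 3 control SCJ was sequenced after polyA selection with a directional kit. Per the submitters' processing notes and the methods, the authors trimmed reads with cutadapt 1.8, with TopHat2 2.0.13 also named, quantified UCSC mm10 genes with cuffquant and made FPKM with Cuffnorm 2.2.1; use of strand in counting is not given in the sources used here. The values deposited by the authors are these FPKM rounded to whole numbers (100% whole), treated as a score, never as reads. The 14357 genes that reached 1 FPKM in 3 or more samples entered limma 3.58.1 (R 4.3.3), fitted to log2(FPKM + 1) with a trended prior variance, and p-values were adjusted over all of them by Benjamini-Hochberg. The fit was run on simulated data of 14103 genes, with 200 genes above the lowest levels changed by 3 on the log2 scale. It recovered 200, with 3 false calls. The changes of the members were smaller and many levels lower, so that this run does not measure power for them. Single genes were also compared by an exact permutation test of the difference of means. Members and lists were chosen with earlier results of these data known. The values of 1 member and of some list genes are not reported here, though they stay in the counts. The other members are named, and from each other list up to 3 genes past the threshold with the largest change. Other genes (Lcp1, Mcpt4, Adgre1, Vsig4, Il34, Syk, Ltf, Ptprc, Alb, Krt5, Krt14, Krt13, Batf3, Col1a1, Plac8, the B cell genes and the dendritic cell genes, list genes at 0 throughout, those of the closing observations and the near copies Lyz1 and Fcgr4) were named after their values were seen. Alternatives were other pseudocounts, filters, scalings, variance models, a replicate block, each sample left out and, added after seeing the data, rounding against a rise. Positions are from GENCODE M21, 1-based.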

Additional observations from a re-analysis of the deposited data

Results flagged for a closer look

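A single cancer stood far from the other 4 for 4 of the 34 tested members. The measure was the distance of that cancer to the nearest cancer over the whole range on the log2 scale. For continuous values chance gives about 1.7 members, but whole FPKM often tie, so that this rate does not apply here. Itgam in cancer 5 (2 FPKM against 1 in the other 4, 1.0 of the range) differs by 1 step of rounding. Fcgr1 in cancer 3 (3 FPKM against 1, also 1.0 of the range) differs by 2 steps. C1qc in cancer 3 was at 75 FPKM, and the others ran from 31 to 38 (0.771 of the range). Retnlg in cancer 5 was at 10 FPKM against 0 to 1 (gap of 0.711 of the range).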

How the results depend on the processing

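The count of members past the threshold was 16, all higher, with 0 lower in every fit run. It was 9 of 18 members at a mean FPKM of at least 5, 26 with TPM, 25 with array weights and 9 with rounding set against a rise, where 13.6%, 50.0%, 27.2% and 8.15% of all genes were higher (16.2% in the reported fit). Over the fits with 1 sample fewer it ran from 11 (without control 3) to 19 (without cancer 4), where 10.6% and 16.3% of all genes were higher. Sample numbers showed no pairing (correlations of deviations from the group means were -0.021, -0.19 and -0.10 for numbers 1, 2 and 3). A fit with the replicate block gave 6 members, where 6.84% of all genes were higher, and 1534 of all genes past the threshold. The C1q chains were not among the 6 (limma adjusted p 0.055, 0.0563 and 0.0502 for C1qa, C1qb and C1qc), with log2 fold changes of 2.48, 2.36 and 2.54. The median log2 fold change of 1.26 was 2.01 with a pseudocount of 0.1, 2.09 with TPM, 0.99 with quantile normalization, 0.84 with rounding set against a rise, with 1.13 to 1.33 over the fits with 1 sample fewer. Members with every cancer above every control numbered 18, where 14.4% of all genes did so. They numbered 26 with TPM and 18 with quantile normalization, for which the share of all genes is not given here. Of 108 tested genes of the other lists 31 were past the threshold (21 higher and 10 lower), where 34.5% of all genes were. The number was 57 with TPM and 13 with quantile normalization, where 7704 and 3793 of all 14357 genes were past it.

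Signs turned for 4 members described in the text, none past the threshold on either side. S100a8 had 0.54 with TPM, 0.52 with array weights and from -1.20 to 0.37 over the fits with 1 sample fewer. Cd80 had -0.31 with quantile normalization, -0.60 with rounding set against a rise and from -0.10 to 0.40 over the fits with 1 sample fewer. Csf3r had -0.23 with rounding set against a rise and Mpeg1 from -0.068 (without control 3) to 1.37. Of the members' other values under the alternatives, 455 did not change direction or cross the threshold, 42 were weaker and 35 stronger. The cause was not tested. Depth is unknown, and for members at 0 to 3 FPKM the rounding limits what can be told apart.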

Other observations

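Cancer 5 held several neutrophil and inflammatory genes outside the members that were listed at 0 in all controls and at 0 in cancers 1 to 3, noted after their values were seen. Chil3 was at 5 FPKM, Ngp, Mmp8 and Trem1 were at 2 and Fpr2 was at 1 in cancer 5 and listed at 0 in the other 7 libraries, and Csf3 was at 4 in cancer 5 and 1 in cancer 4. The same library had the highest Retnlg (10 FPKM), Cd14 (44), Clec4d (3) and Il1b (36), and the highest Lyz1, at 183 FPKM against 9 to 26 in the other cancers. It also held the liver genes Fgg and Fga at 93 and 65 FPKM, listed at 0 elsewhere, and their part in these values was not tested.

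The chemokine receptor gene Ccr7 was at 8 FPKM and Timd4 at 5 in cancer 1, and both were listed at 0 in the other 7 libraries.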
